A study of Rattus norvegicus with 4 samples.

Results

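The genes described here are the subunits of the respiratory chain and of ATP synthase. They were taken by name from the deposited list of 15731 rat genes: Nduf genes of the a, b, c, s and v series, the 4 Sdh genes, names that begin with Uqcr or Atp5, Cox4 to Cox8 genes, and names that begin with Mt-. The names took 94 rows, 81 of nuclear genes and 13 of protein-coding genes of the mitochondrial genome, with 90 distinct symbols. Complex I had 42 rows, complex II 4, complex III 8, complex IV 20 and complex V 20. Cox7a1 and Ndufab1 were not among the symbols matched. Ndufa4 was counted with complex I by its name, although it is known as a complex IV subunit.

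The cells were cultured ventricular cardiomyocytes of wild-type Wistar rats at postnatal day 1 by the age label and at day 0 by the treatment text. A 2-hour preplating left a supernatant that the labels call mostly cardiomyocytes, so other heart cells could be present. The cultures were transfected with a mimic of 1 of the 3 miRNAs of the miR-106b-25 cluster (miR-106b-5p, miR-93-5p and miR-25-3p, all hsa), or with the worm miRNA cel-miR-67, which served as control. RNA was taken 72 h later, and each of the 4 cultures gave 1 library. The labels give the mimic concentration as 25 nM in the treatment text and as 25 mM in the extraction text.

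The mimics carry human names, and the rat miRNAs of the same names are shown because their seeds (bases 2 to 8, in capitals) divide the 3 mimics into a pair and a single miRNA. Sequences and GRCr8 positions come from RefSeq, and cel-miR-67 is named only.
rno-miR-106b-5p (chr12:22157103-22157123, minus strand): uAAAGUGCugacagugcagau
rno-miR-93-5p (chr12:22156894-22156916, minus strand): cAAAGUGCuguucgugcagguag
rno-miR-25-3p (chr12:22156652-22156673, minus strand): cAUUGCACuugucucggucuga
miR-106b and miR-93 shared the seed AAAGUGC, and miR-25 had the seed AUUGCAC. A miRNA lowers mRNAs that pair with its seed, most often in the 3′UTR. No target sites in the respiratory chain genes were examined here.

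The respiratory chain passes electrons from NADH (complex I) and succinate (complex II) through ubiquinone to complex III, and from there through cytochrome c to complex IV, which reduces oxygen. Complexes I, III and IV pump protons across the inner mitochondrial membrane, and complex V (ATP synthase) uses the gradient to make ATP. Complexes I, III, IV and V are built from subunits of both genomes, whereas all subunits of complex II are nuclear. Heart muscle is rich in mitochondria, and its complex IV contains muscle isoforms of several small subunits, which replace the forms of other tissues as the heart matures.

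The values are RPKM, which scale a gene's reads to its length and to the size of the library, so that levels can be set against each other per length. A log2 ratio is the log2 of the RPKM with a mimic over that with cel-miR-67, for genes above RPKM 1.0 in both libraries. A gene past 1.3-fold (0.38 on the log2 scale) was called higher or lower. With 1 library per mimic there is no replicate check and no test between groups. The 95% exact (Clopper-Pearson) intervals in the text were computed from whole reads recovered from the RPKM steps and cover counting error only. Between 15175185 and 18797234 reads were recovered per library. The library sizes recovered from the RPKM values ranged from 22674410 to 29749467. They were not whole numbers, so they are scaling sizes and not counts of reads. The median log2 ratio over all tested genes lay between -0.01 and 0.00 for the 3 mimics.

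With miR-25, nearly the whole respiratory chain was lower than with cel-miR-67. Of 89 tested members, 80 were called lower, 1 was called higher and 8 were not called, and the median log2 ratio was -0.80 (a ratio of 0.575). Over all 11198 tested genes, 22.6% were called lower and 19.3% higher with miR-25. The 95% counting interval lay below 0 for 87 of the 89 members. With miR-106b, 8 of 90 tested members were called lower (8.89%) and 6 higher (6.67%), while 12.7% of all tested genes were called lower and 11.9% higher. With miR-93, 15 of 90 were called lower (16.7%) and 6 higher (6.67%), against 15.6% lower and 15.1% higher over all genes. The median log2 ratio of members was 0.05 under miR-106b and -0.09 under miR-93.

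Both balances changed with the scaling. With library sizes replaced by the summed reads of the listed genes other than Mt- genes (listed-read sizes), 5 members were lower and 11 higher with miR-106b and 7 were lower and 15 higher with miR-93, and the miR-93 median became 0.04. Reads on listed genes were 66.9% of the library size with cel-miR-67, 63.2% under miR-106b, 60.5% under miR-93 and 60.4% under miR-25. Relative to cel-miR-67, the library sizes matched TMM sizes (a trimmed-mean scaling of the recovered reads) within 0.0033 (log2). These percentages therefore follow that scaling and need not be shares of all reads. Listed-read sizes are plain sums without it, and moved the median of all genes by 0.06 (miR-106b), 0.13 (miR-93) and 0.11 (miR-25). With ratios centred on other genes of like length (length centring), 1 member was higher with miR-106b and its median became -0.06. Where either scaling ends a call or ratio past 1.3-fold that is stated here for a single gene, the changed value is given with it. The miR-25 median of the members stayed between -0.80 and -0.67 under every alternative run. The 3 comparisons share the cel-miR-67 library.

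In the order of levels across the 4 libraries, 86 of the 89 members above RPKM 1.0 in every library were lowest with miR-25. The exceptions were Ndufb9, Cox7a2l and Atp5s. For 37 members the highest level was that of miR-106b, for 24 that of miR-93, for 27 that of cel-miR-67 and for 1 that of miR-25. These orders were not counted over all genes, so whether they are particular to the members is not shown.

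Mimic against mimic, without the cel-miR-67 library, the miR-25 library again stood low. These comparisons use the same miR-25 library as the ratios over cel-miR-67 and are not independent of them. Of 89 tested members, 75 were lower with miR-25 than with miR-106b and 1 was higher, with a median log2 ratio of -0.81, against 23.0% lower and 22.1% higher over all genes. Of 90 members tested against miR-93, 79 were lower with miR-25 and 1 was higher, with a median of -0.77, against 23.0% lower and 22.1% higher over all genes. Between the mimics that share a seed the difference was smaller, with 19 of 90 members lower and 1 higher with miR-93 than with miR-106b (8.21% and 7.30% over all genes) and a median of -0.05. The lowest of these was Ndufa1, a small membrane subunit of complex I, at -0.95.

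**Figure D1:**
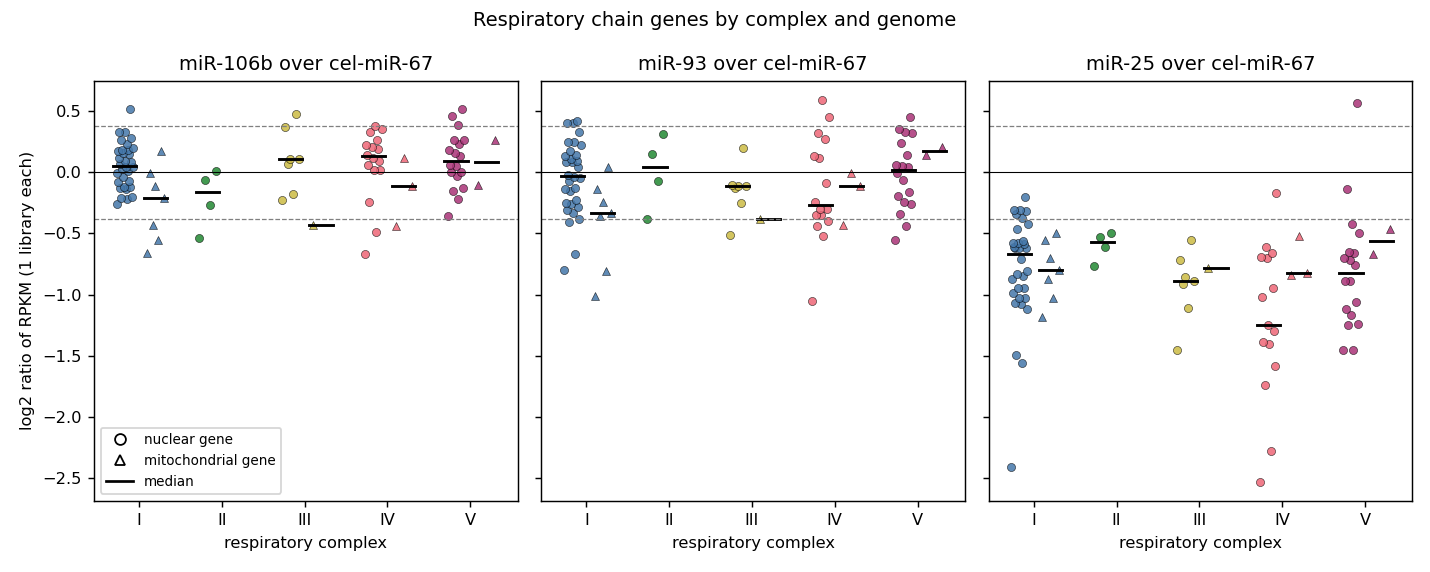
Log2 ratio of RPKM (vertical axis) of each tested member over cel-miR-67 by respiratory complex (horizontal axis), in 1 panel per mimic. Circles are nuclear and triangles mitochondrial genes, black bars are medians and dashed lines mark 1.3-fold. With miR-25 only Atp5s lies above the upper dashed line, while with miR-106b and miR-93 most points lie between the lines.

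Marker genes of the cultured cells moved with the same library. The 14 cardiomyocyte markers found of 15 were all called lower with miR-25, with a median log2 ratio of -1.03. Their summed RPKM was 22673 with cel-miR-67, 20407 under miR-106b, 15693 under miR-93 and 13107 under miR-25. Actc1 weighed heavily on these sums, at 7073, 5034, 2733 and 4953 in that order. With miR-93, Ckm (0.56) and Tnni3 (0.49) were called higher. Called lower were Actc1 (-1.37), Casq2 (-1.08), Ryr2 (-0.62), Actn2 (-0.51) and Myl2 (-0.45), and the other markers were not called. With miR-106b, Tnni3 (0.63) was called higher and Actc1, Casq2, Ryr2 and Myh6 lower (-0.69 to -0.43). Tnni3, the cardiac troponin I that replaces the slow skeletal form after birth, had the lowest miR-25 ratio. Its RPKM was 351 with cel-miR-67, 543 under miR-106b, 495 under miR-93 and 15.9 under miR-25. In the miR-25 library 5 of 6 smooth muscle markers were called higher (median 1.21), led by Cnn1 at RPKM 88.8 with cel-miR-67 and 278 with miR-25. The remaining marker, Smtn, was called lower (-0.46). Of the fibroblast markers, 7 of 10 were called lower (median -0.71), while Lum was called higher (0.87). The summed RPKM of the smooth muscle markers was 758, 700, 596 and 2067 in that order of libraries, and that of the fibroblast markers 899, 714, 810 and 386. Endothelial, macrophage, red blood cell and Schwann markers summed to at most RPKM 20.7 in any library. None of the markers found was at 0 in any library. The part of these shifts in the respiratory chain result was not tested, and in bulk RNA fewer cells of a type and less RNA per cell cannot be told apart.

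In summed RPKM, mitochondrial transcripts exceeded the nuclear members in every library. Single Mt- genes did not all do so, since with cel-miR-67 Mt-nd2 (RPKM 231) lay below the nuclear Atp5b (1688). Summed RPKM of the 13 Mt- genes was 36821 with cel-miR-67, 30836 under miR-106b, 30669 under miR-93 and 23689 under miR-25. Mt- genes held 6.17%, 5.20%, 5.36% and 4.51% of all recovered reads in that order of libraries, and the nuclear members 2.31%, 2.52%, 2.60% and 1.5%. All 13 were called lower with miR-25 (median -0.78), 5 with miR-106b (median -0.11) and 3 with miR-93 (median -0.24), and none was called higher. With listed-read sizes the miR-106b median was -0.04, and Mt-co1, Mt-cytb and Mt-nd4l were no longer called with miR-106b. Mt-co1 was then also no longer called with miR-93, nor Mt-atp8 with miR-25.

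Mt-co1, the catalytic subunit of complex IV that carries its heme and copper centre, had the highest level of all members. Its RPKM was 18554 with cel-miR-67, 13704 under miR-106b, 13754 under miR-93 and 12965 under miR-25. It was called lower with all 3 mimics, at log2 -0.44, -0.43 and -0.52. With listed-read sizes the first 2 ratios were -0.37 and -0.30 and only the miR-25 call was left. By RPKM the 3 mimic libraries lay closer to each other than to the control. Mt-co2, which takes electrons from cytochrome c, was at RPKM 4111, 4461, 4090 and 2324 in that order of libraries. Mt-cox3, the third mitochondrial subunit of complex IV, was at 5817, 5380, 5391 and 3241. For these 2 genes only the miR-25 library stood low, with log2 ratios of -0.82 and -0.84.

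Mt-nd5 and Mt-nd6, membrane subunits of complex I, were called lower with each mimic. Mt-nd5 RPKM was 982 with cel-miR-67, 673 under miR-106b, 561 under miR-93 and 539 under miR-25, which gave log2 ratios of -0.55, -0.81 and -0.87. Mt-nd6 RPKM was 1159, 734, 576 and 568 in the same order, with log2 ratios of -0.66, -1.01 and -1.03. Between miR-93 and miR-25 the Mt-nd6 ratio was -0.02 (95% exact interval -0.07 to 0.02). Mt-nd6 lies on the other strand of the mitochondrial genome than the rest of the Mt- members, and whether reads were counted by strand is not given in the sources used here, so its reads and those from the opposite strand cannot be told apart.

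The remaining complex I genes of the mitochondrial genome were mainly low with miR-25. Mt-nd1 was at RPKM 542, 537, 558 and 334 with cel-miR-67, miR-106b, miR-93 and miR-25. Mt-nd2 was at 231, 200, 209 and 133, and Mt-nd4 at 240, 223, 203 and 164. Mt-nd3 had the lowest miR-25 ratio of all Mt- genes, at -1.18 (95% exact interval -1.27 to -1.09), from RPKM 403, 454, 321 and 178. Mt-nd4l was at 254, 189, 198 and 179, and was called lower with miR-106b (-0.43) and miR-25 (-0.50) but not with miR-93 (-0.36). The first call was lost with listed-read sizes (-0.36) and the second with length centring (-0.24). Mt-nd4l overlaps Mt-nd4 on the mitochondrial genome, so reads of the overlap could have been counted for either.

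Cytochrome b (Mt-cytb), the heme subunit of complex III, was at RPKM 994, 738, 765 and 581 with cel-miR-67, miR-106b, miR-93 and miR-25. It was called lower with miR-106b (-0.43) and miR-25 (-0.78), and at -0.38 with miR-93 it lay just inside 1.3-fold. With listed-read sizes the miR-106b ratio was -0.36 and was not called. The proton channel subunit Mt-atp6 of ATP synthase was at 944, 1127, 1042 and 595, and the short Mt-atp8 at 2590, 2419, 3001 and 1888. These 2 genes overlap. With miR-25 they were at -0.67 and -0.46, and with the other mimics neither passed 1.3-fold. The Mt-atp8 call was lost with listed-read sizes (-0.33) and with length centring (-0.19).

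**Figure D2:**
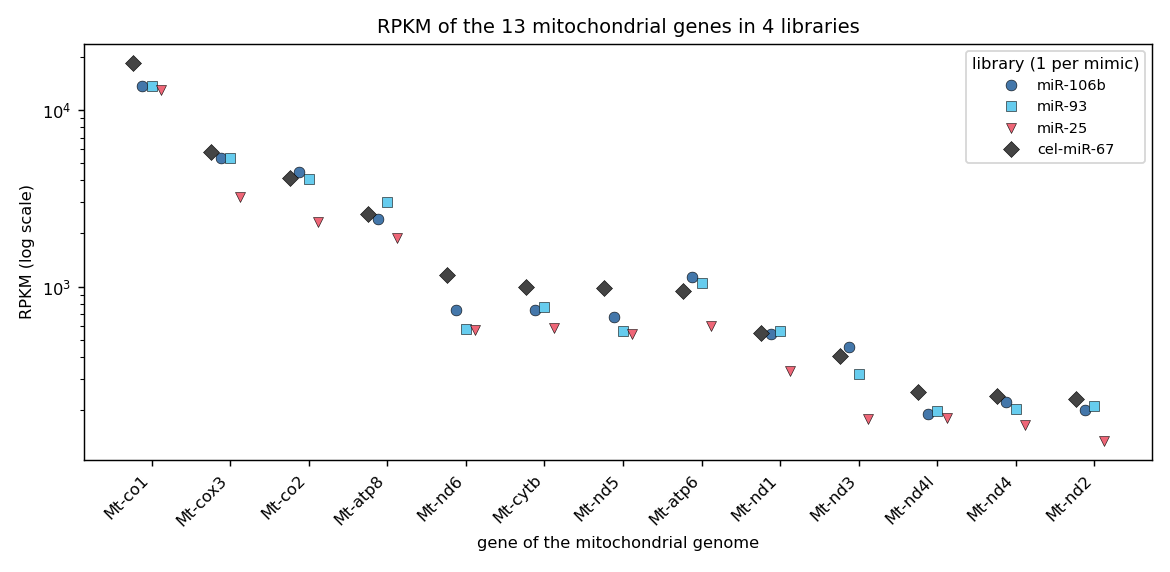
RPKM on a log scale (vertical axis) of the 13 mitochondrial genes (horizontal axis, ordered by the level with cel-miR-67) in the 4 libraries, 1 library per mimic. The miR-25 triangles are the lowest of each column, and for Mt-nd6, Mt-nd5 and Mt-co1 all 3 mimics lie below the control diamond.

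Summed over genes, miR-25 over cel-miR-67 gave a ratio of 0.643 for mitochondrial and 0.541 for nuclear members. Summed RPKM of Mt- genes over that of nuclear members was 2.39 with cel-miR-67, 1.92 under miR-106b, 2.06 under miR-93 and 2.84 under miR-25. This ratio is taken within a library and does not depend on library size, and the miR-25 library had the highest value. The miR-106b and miR-93 libraries were both below the control, and their order depended on the measure, since summed reads gave a ratio of 2.06 for either, and the median log2 RPKM of Mt- genes exceeded that of nuclear members by 2.29 with miR-106b and 2.11 with miR-93. Without Mt-co1 the ratios were 1.18, 1.07, 1.14 and 1.28. Mt-co1 alone made up 50.4% of the summed mitochondrial RPKM with cel-miR-67, 44.4% under miR-106b, 44.8% under miR-93 and 54.7% under miR-25. Within complex IV the ratio of mitochondrial to nuclear RPKM was 6.59 with cel-miR-67 and 9.66 with miR-25, and within complex I it was 1.07 and 0.987, so complexes IV and I differed in direction.

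By complex, the miR-25 medians of nuclear members were -0.66 for complex I, -0.57 for complex II, -0.89 for complex III, -1.25 for complex IV and -0.83 for complex V. The complex IV median counts Cox6b1 (-1.39 and -1.40) and Cox7a2 (-1.58 and -1.74) in repeated rows, all below it. Its distance from the other complexes therefore leans on these rows. Called lower were 26 of 32 tested nuclear complex I members, 4 of 4 in complex II, 7 of 7 in complex III (Uqcrh was at -0.29 and not called with length centring), 14 of 15 in complex IV and 16 of 18 in complex V. Summed nuclear RPKM with miR-25 over cel-miR-67, repeated rows included, ranged from a ratio of 0.444 in complex IV to 0.656 in complex II. With miR-106b and miR-93 the nuclear medians lay between -0.27 and 0.13, and over whole complexes those of I, III and IV with miR-106b and of I and III with miR-93 changed sign under another scaling, so no direction is given for them.

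**Figure D3:**
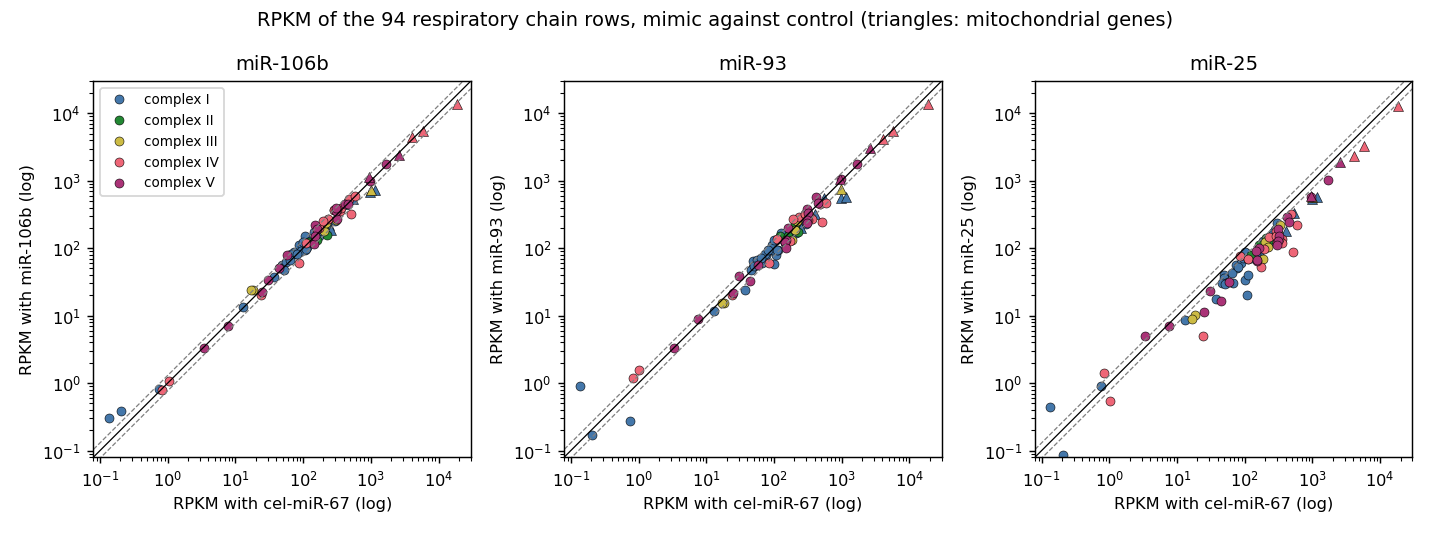
RPKM of the 94 rows with cel-miR-67 (horizontal axis, log scale) against RPKM with each mimic (vertical axis, log scale), coloured by complex, with triangles for mitochondrial genes. The solid line marks equal levels and the dashed lines 1.3-fold. With miR-25 most points lie below the lower dashed line over the range from RPKM 10 to that of Mt-co1.

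In complex I, the 7 core subunits of the nuclear genome, which hold the flavin and iron-sulfur centres, were all called lower with miR-25 (median -0.71). Ndufs1, the largest, was at RPKM 174 with cel-miR-67, 150 under miR-106b, 168 under miR-93 and 114 under miR-25. Ndufs3 was at 112, 97, 93.7 and 68.7. Ndufs7 was at 51.6, 47.6, 54.7 and 29.5, and Ndufs8 at 80.4, 82.5, 93.4 and 52.5. These levels were close to the control with miR-106b and miR-93, and every miR-25 value lay below the other 3 libraries. Ndufv1, which binds NADH, had the lowest core ratio with miR-25, at -0.87 (95% exact interval -0.93 to -0.81), from RPKM 148, 141, 126 and 81.3. Its partner Ndufv2 was at 126, 129, 167 and 70.9 and was the only core subunit called with another mimic, at 0.40 with miR-93 (0.32 with length centring, not called).

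The accessory complex I subunits, which surround the core and help its assembly and stability, spread more widely. Ndufa5, a subunit of the matrix arm, had the lowest complex I ratio with miR-25, at -2.41 (95% exact interval -2.59 to -2.22), which is 5.30-fold lower. Its RPKM was 107 with cel-miR-67, 92.5 under miR-106b, 80.1 under miR-93 and 20.1 under miR-25. Ndufa1 was at 101, 112, 58.1 and 34.3, with log2 ratios of -0.80 with miR-93 and -1.56 with miR-25. Ndufb9, the nuclear complex I member with the highest level in the control, was at 300, 252, 231 and 240, so all 3 mimic libraries were below the control and only the miR-93 ratio (-0.38) passed 1.3-fold, a call lost with listed-read sizes (-0.25). Ndufc1 was at 105.8, 152, 133 and 85.1, the largest complex I ratio with miR-106b (0.52), with an interval of 0.32 to 0.72, and was not called with length centring (0.35). Ndufc2 was at 99.9, 125, 134 and 86.9, the highest complex I ratio with miR-93 (0.42) and, at -0.20, also with miR-25. The 6 nuclear members of complex I not called with miR-25 were Ndufa8, Ndufb6, Ndufb9, Ndufb11, Ndufc1 and Ndufc2, with ratios from -0.37 to -0.20. These were named after their values were seen.

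In complex II, which links the TCA cycle to the chain, Sdhd was called lower with every mimic. Sdhd, a membrane anchor subunit, was at RPKM 226 with cel-miR-67, 156 under miR-106b, 174 under miR-93 and 133 under miR-25, with log2 ratios of -0.54, -0.38 and -0.77. The miR-93 ratio lay at the cutoff, and with listed-read sizes it was -0.25 and not called. The other anchor, Sdhc, was at 160, 132, 152 and 113. The flavoprotein Sdha was at 203, 194, 225 and 140, and the iron-sulfur subunit Sdhb at 122, 123, 151 and 80.3. For Sdha, Sdhb and Sdhc only the miR-25 ratios passed 1.3-fold, at -0.53, -0.61 and -0.50. With listed-read sizes Sdhb was also higher with miR-93 (0.44).

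In complex III, all 7 nuclear members were called lower with miR-25. Uqcrh, the hinge protein and the nuclear complex III member with the highest level in the control, was at RPKM 329 with cel-miR-67, 354 under miR-106b, 305 under miR-93 and 224 under miR-25. Uqcrfs1, the Rieske iron-sulfur protein, was at 221, 238, 254 and 103, a miR-25 ratio of -1.11. Cytochrome c1 (Cyc1), its core partner, which the name rule leaves out, was at 256, 240, 261 and 133. The small subunit Uqcr10 was at 187, 196, 132 and 68.4 and had the lowest complex III ratio with miR-93 (-0.51) and miR-25 (-1.45). With listed-read sizes its miR-93 ratio was -0.37 and not called. Uqcrc2, a core-protein subunit, was at 308, 263, 288 and 167, the lowest with miR-106b (-0.23) among nuclear members. Uqcrq was at 16.9, 23.6, 15.5 and 8.96 and was called higher with miR-106b (0.48).

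In complex IV a muscle isoform was among the lowest members with every mimic. Cox6a2 (ENSRNOG00000019851), the heart and skeletal muscle form of subunit VIa, was at RPKM 515 with cel-miR-67, 324 under miR-106b, 248 under miR-93 and 88.8 under miR-25. The order was the control, miR-106b, miR-93 and then miR-25. The log2 ratios were -0.67 (95% exact interval -0.72 to -0.61), -1.05 (-1.12 to -0.99) and -2.53 (-2.63 to -2.44), the last 5.79-fold lower, and in each comparison Cox6a2 had the lowest ratio of all tested members. Within counting error it was not apart from the next members, since its interval overlapped those of Mt-nd6 (-0.70 to -0.62) and the thinly read Cox6b2 with miR-106b, of Mt-nd6 (-1.05 to -0.97) and Ndufa1 with miR-93 and of Ndufa5 and Cox8b with miR-25. Against each other, miR-93 was lower than miR-106b by a log2 ratio of -0.39 and miR-25 lower than miR-93 by -1.48. The partner form of other tissues, Cox6a1, was at 289, 369, 317 and 180, with log2 ratios of 0.35, 0.13 and -0.69, so it was above the control with miR-106b and miR-93 by less than 1.3-fold and below it with miR-25. With listed-read sizes its miR-106b ratio was 0.42, past 1.3-fold. Cox6a2 made up 64.0% of the RPKM of the pair with cel-miR-67 (63.1 to 65.0%) and 46.7% with miR-106b (45.8 to 47.7%). The share was 43.9% (42.8 to 45%) with miR-93, and miR-25 gave 33.1% (31.5 to 34.6%). The intervals of the 3 mimics lay below that of the control.

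Cox8b, the muscle form of subunit VIII, was also lowest with miR-25, at a lower level. It was at RPKM 24.1 with cel-miR-67, 20.3 under miR-106b, 20.3 under miR-93 and 4.95 under miR-25, on 174, 193, 177 and 43 reads. The miR-25 ratio was -2.28 (95% exact interval -2.80 to -1.79), and the intervals of the other 2 ratios included 0. Its partner Cox8a was at 194, 252, 266 and 95.9 and was called higher with miR-106b (0.38) and miR-93 (0.45) and lower with miR-25 (-1.02). The miR-106b call was lost with length centring (0.21). Cox8b made up 11% of the pair with cel-miR-67 (9.56 to 12.7%) and 7.46% with miR-106b (6.49 to 8.52%). The share was 7.10% (6.13 to 8.17%) with miR-93, and miR-25 gave 4.90% (3.58 to 6.53%). Of the third pair only the non-muscle form Cox7a2 was found, in 2 rows (ENSRNOG00000042903 and ENSRNOG00000027791). The first was at RPKM 361, 394, 275 and 121, with a miR-25 ratio of -1.58, and the second at 172, 197, 127 and 51.7, with a ratio of -1.74.

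**Figure D4:**
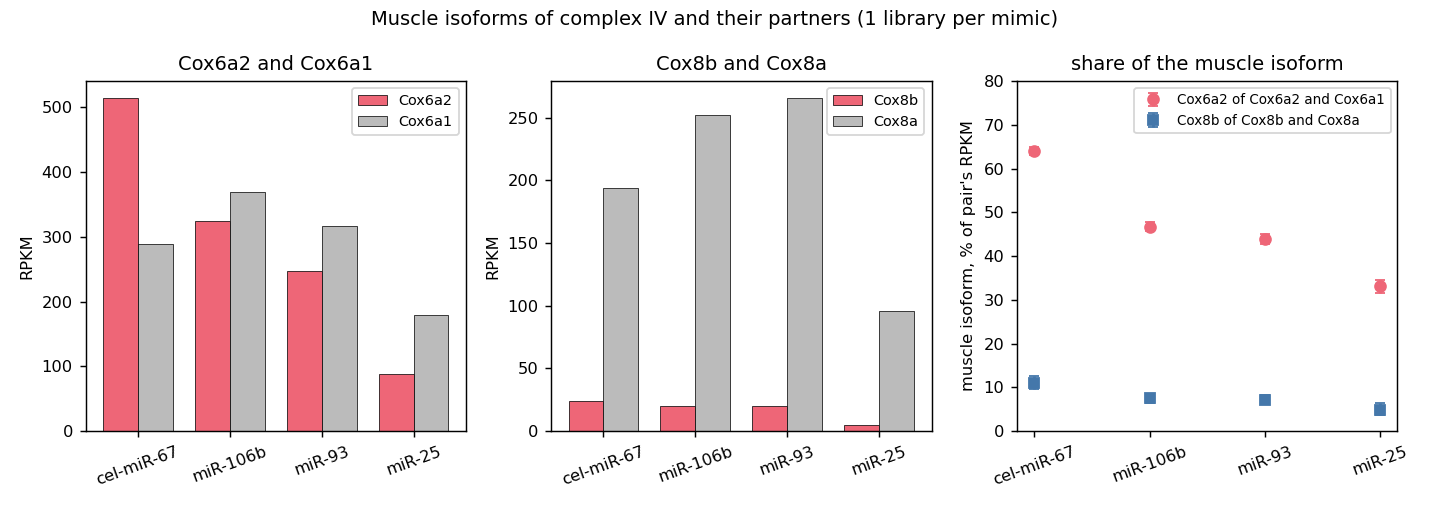
Bars give RPKM (vertical axis) of Cox6a2 with Cox6a1 and of Cox8b with Cox8a in each library (horizontal axis), and the third panel gives the muscle form in percent of the RPKM of its pair with 95% exact intervals for counting error. The Cox6a2 share is 64.0% with cel-miR-67 and 33.1% with miR-25, with the other 2 mimics between them.

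The complex IV forms of other tissues were near or under the RPKM minimum. Cox4i2, the form induced by low oxygen, was at RPKM 0.836, 0.797, 1.18 and 1.43 with cel-miR-67, miR-106b, miR-93 and miR-25. Ndufa4l2 was at 0.748, 0.82, 0.272 and 0.895, and Cox6b2, the testis form, at 1.03, 1.07, 1.56 and 0.546. Cox6b2 rested on 11 reads in the control, and although its miR-93 ratio (0.59) passed 1.3-fold, the interval of -0.54 to 1.80 included 0.

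Cox6b1, the nuclear complex IV member with the highest level in the control, is listed in 2 rows (ENSRNOG00000034161 and ENSRNOG00000024309). The first row was at RPKM 587, 593, 461 and 222 and the second at 354, 360, 278 and 135, and the reads of the pair stood in a ratio from 1.39 to 1.40 in all 4 libraries. Reads of such copies could have been split between rows, so neither level is certain. Without repeated symbols the complex IV median with miR-25 was -0.83 in place of -0.98. Cox7a2l, which takes part in joining complexes III and IV, was the complex IV member least lowered by miR-25. It was at RPKM 85.7, 60.9, 60.0 and 76.3, called lower with miR-106b (-0.49) and miR-93 (-0.52) but not with miR-25 (-0.17).

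In complex V, the nuclear member with the highest level was Atp5b, the catalytic beta subunit of the F1 sector. It was at RPKM 1688 with cel-miR-67, 1764 under miR-106b, 1753 under miR-93 and 1023 under miR-25, a miR-25 ratio of -0.72. All 6 F1 members were called lower with miR-25 (median -0.83), of which Atp5c1 was not called with listed-read sizes (-0.30). Atp5e, the epsilon subunit, was at 152, 217, 133 and 64.3 and had the highest complex V ratio with miR-106b (0.52) and a ratio of -1.24 with miR-25. Its miR-106b call was lost with length centring (0.34). Atp5c1, the gamma subunit, was at 30.7, 34.3, 39.2 and 22.9, the miR-25 ratio nearest to 0 among nuclear complex V members above RPKM 10 (-0.42).

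The c-ring, which turns in the membrane as protons pass, is encoded by 3 genes whose mature protein is the same. Atp5g1 was at RPKM 317, 273, 327 and 152, Atp5g2 at 146, 114, 122 and 89.8 and Atp5g3 at 416, 456, 569 and 294. Atp5g3 was called higher with miR-93 (0.45), but not with length centring (0.37). Its share of the RPKM of the 3 genes was 47.3% with cel-miR-67, 54.1% under miR-106b, 55.9% under miR-93 and 54.9% under miR-25, while the share of Atp5g1 was 36.1% with cel-miR-67 and from 28.3% to 32.3% with the mimics. Atp5g2 had the lowest complex V ratio with miR-106b (-0.36).

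Atp5l, subunit g of the membrane sector, had the lowest complex V ratio with miR-25 (-1.45). It was at RPKM 304, 397, 240 and 111 and was called higher with miR-106b (0.39), a call lost with length centring (0.21). Atp5j2 was at 151, 151, 102 and 66.8, the lowest complex V ratio with miR-93 (-0.55). Atp5s was the only member called higher with miR-25, at RPKM 3.39, 3.33, 3.37 and 5.03, a ratio of 0.57 (95% exact interval 0.28 to 0.87). Atp5s, a coupling factor, and the related Atp5sl (RPKM 7.68, 7, 9.04 and 6.97, ratio -0.14) carry Atp5 names but are not counted among the structural subunits of the enzyme.

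Across the members, the named ones included, the recovered length, which is a lower limit for a gene, went with the size of the miR-25 ratio. Nuclear members up to 600 bases long had a median of -1.10 with miR-25 (30 of 32 called lower), those above 600 and up to 1000 bases -0.81 (16 of 19), those above 1000 and up to 2000 bases -0.72 (15 of 18) and longer ones -0.62 (6 of 7). Other genes in the same classes had medians of -0.27, -0.06, -0.02 and 0.02, and 43.7% of the other genes up to 600 bases were called lower. Spearman's rho between length and the miR-25 ratio was 0.43 across 89 members, which share libraries and are not independent, and 0.07 across 11109 other genes. After centring on the other genes of the same length class, an alternative added after the data were seen, 83.1% of the members were still lower past 1.3-fold with miR-25. With miR-106b the short classes leaned the other way, with medians of 0.18 for nuclear members and 0.17 for other genes up to 600 bases.

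**Figure D5:**
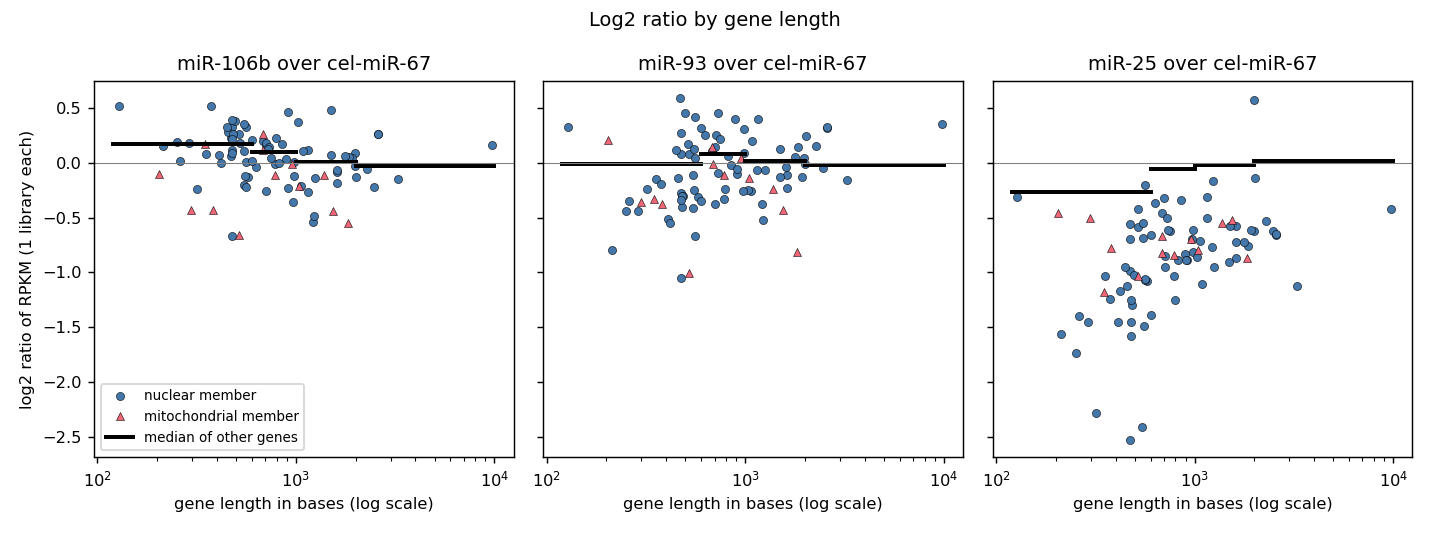
Log2 ratio over cel-miR-67 (vertical axis) against recovered gene length in bases (horizontal axis, log scale), in 1 panel per mimic. Circles are nuclear and triangles mitochondrial members, and black lines are the medians of other genes in 4 length classes. With miR-25 nearly all points lie below the black line of their class.

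Other nuclear genes of the mitochondrion were lowered less by miR-25 in the median. Over all tested genes, 22.6% were called lower and 19.3% higher with miR-25, 12.7% and 11.9% with miR-106b, and 15.6% and 15.1% with miR-93. Among 75 rows of mitochondrial ribosomal proteins (73 distinct symbols), which build the ribosome that translates Mt- genes, 34 were called lower and 4 higher with miR-25 (median -0.28), 1 and 8 with miR-106b (0.06) and 3 and 7 with miR-93 (0.06). One of the 4 higher rows was 1 of 2 for Mrpl36 (0.40), whose other row was at 0.29 and not called. The ends of that list were Mrps12, at RPKM 4.66 with cel-miR-67, 19.7 under miR-106b, 18.6 under miR-93 and 15.2 under miR-25, Mrps18b, at 11.7, 7.90, 6.97 and 7.13, and Mrps18a, at 53.9, 59.4, 57.6 and 26.6. Of 44 assembly factors tested, 19 were called lower and 1 higher with miR-25 (median -0.22). Acad9, a complex I assembly factor, was lowest with miR-25 (RPKM 17.2 in the control and 7.86) and Ttc19, which acts on complex III, highest (8.18 and 12.5).

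With the other mimics the ends of the assembly list were Tmem126b (RPKM 7.34 in the control and 5.71 with miR-106b), Ndufaf2 (2.03 and 3.35 with miR-106b), Uqcc2 (27.9 and 19.9 with miR-93) and Tmem70 (5.49 and 8.27 with miR-93). For the 32 genes found that serve the expression and upkeep of the mitochondrial genome, 4 were called lower and 0 higher with miR-106b (median -0.12). The counts were 3 lower and 1 higher under miR-93 (-0.13), and under miR-25 12 lower and 1 higher (-0.33). The miR-106b share, 12.5%, lay beside the 12.7% of all genes. Gfm1, a mitochondrial elongation factor, was lowest with miR-25 (RPKM 48.1 in the control and 21.5), Tfb2m, a transcription factor of the mitochondrial genome, with miR-93 (19.2 and 13.2) and Fastk with miR-106b (22.1 and 14.4). The highest were Top1mt with miR-25 (1.48 and 2.57) and Mgme1 with miR-106b and miR-93 (3.24, 4.01 and 4.32).

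For the next lists, too, the shares over all tested genes were 22.6% lower and 19.3% higher with miR-25. They were 12.7% and 11.9% with miR-106b and 15.6% and 15.1% with miR-93. Among 26 enzymes of fatty acid oxidation and the TCA cycle, 9 were called lower and 0 higher with miR-25 (median -0.26), 2 and 0 with miR-106b (-0.03), and 2 and 4 with miR-93 (0.02). Among their lowest values were Acadvl with miR-106b (RPKM 55.2 in the control and 33.8) and Acadl with miR-93 (33.9 and 17.5). Their highest were Suclg2 with miR-25 (61.7 and 80.1), Suclg1 with miR-106b (15.7 and 19.5) and Hadh with miR-93 (8.56 and 15.9). Of the electron carriers and subunits outside the name rule, 8 rows were tested and 5 were called lower with miR-25 (median -0.61). Usmg5, a small ATP synthase subunit, was lowest, at RPKM 236, 270, 172 and 82.3, and cytochrome c (Cycs), listed in 2 rows, had miR-25 ratios of -0.70 and -0.74. Atpif1, the inhibitor of ATP synthase, was at 111, 170, 137 and 91.3 and was called higher with miR-106b (0.62), and Etfdh, at 38, 30.4, 34.9 and 31.0, was lowest of these with miR-106b. Etfa, at 76.1, 68.2, 76.4 and 66.8, had the miR-25 ratio nearest to 0 (-0.19).

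Promoters of the nuclear members were read from RefSeq (GRCr8, 250 bases before to 50 after the start) for 67 of 77 symbols, because respiratory chain genes are known to share a small set of transcription factors. Each motif was searched as exact letters on both strands. The letters GCGCATGCG (NRF-1), which largely overlap their own reverse complement, were in 8.96% of member promoters, 1.65% of all 27457 promoters and 3.80% of 7743 expressed promoters. The expressed set held genes above RPKM 1.0 in every library, matched by current symbol, together with all matched members. Some of these members were under that level or were matched by an older symbol. For CCGGAAG (GABPA) the shares were 29.9%, 9.21% and 19.6%, and for AAGATGGCG (YY1) 13.4%, 1.92% and 4.46%. GGGCGG (Sp1) was in 38.8% of member promoters, against 34.7% of all and 64.9% of expressed promoters. TCAAGGTCA (ERR) was in 2 member promoters, Atp5g3 and Sdhd (2.99%, 0.397% and 0.232%), and CTAAAAATA (MEF2) in 1, Cox6a2 (1.49%, 0.521% and 0.258%). A match is a description of letters and not of binding.

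The promoters of both muscle isoforms found, of the Cox8b partner Cox8a and of Sdhd, the nuclear member called lower with all 3 mimics beside Cox6a2 (with the deposited library sizes), are shown with every motif match in capitals. They read 5′ to 3′ along the gene.
Cox6a2 (chr1:192219667-192219966, minus strand): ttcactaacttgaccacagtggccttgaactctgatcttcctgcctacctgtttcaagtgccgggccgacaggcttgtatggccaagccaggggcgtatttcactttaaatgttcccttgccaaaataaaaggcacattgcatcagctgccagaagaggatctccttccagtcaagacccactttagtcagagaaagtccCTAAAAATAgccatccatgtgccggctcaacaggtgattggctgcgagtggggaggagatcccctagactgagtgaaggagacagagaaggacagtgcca
Cox8b (chr1:205408224-205408523, minus strand): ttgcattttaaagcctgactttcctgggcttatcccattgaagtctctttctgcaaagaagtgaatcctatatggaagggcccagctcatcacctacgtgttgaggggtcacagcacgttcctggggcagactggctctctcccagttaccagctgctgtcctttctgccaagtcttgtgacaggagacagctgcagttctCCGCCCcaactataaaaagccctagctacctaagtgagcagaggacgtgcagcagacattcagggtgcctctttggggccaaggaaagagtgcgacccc
Cox8a (chr1:213833574-213833873, minus strand): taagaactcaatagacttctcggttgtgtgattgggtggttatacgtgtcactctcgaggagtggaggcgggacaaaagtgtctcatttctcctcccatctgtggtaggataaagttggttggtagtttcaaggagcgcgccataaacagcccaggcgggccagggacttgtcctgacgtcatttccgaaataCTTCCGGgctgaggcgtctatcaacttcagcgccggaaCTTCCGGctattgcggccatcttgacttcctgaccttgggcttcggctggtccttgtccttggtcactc
Sdhd (chr8:59850592-59850891, minus strand): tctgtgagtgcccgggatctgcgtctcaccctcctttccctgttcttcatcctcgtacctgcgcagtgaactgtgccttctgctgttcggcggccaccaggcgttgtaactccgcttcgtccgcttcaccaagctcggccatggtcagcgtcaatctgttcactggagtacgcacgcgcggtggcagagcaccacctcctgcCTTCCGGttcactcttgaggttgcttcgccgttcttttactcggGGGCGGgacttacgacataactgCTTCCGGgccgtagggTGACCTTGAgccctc
The capitals in Cox6a2 are the MEF2 letters, which begin 50 bases before the start. Those in Cox8b are the Sp1 letters on the opposite strand, 49 bases before the start. Cox8a has the GABPA letters on the opposite strand at 57 and 19 bases before the start. Sdhd has GABPA letters on the opposite strand 48 bases before and 19 bases after the start, Sp1 letters 4 bases before it and ERR letters on the opposite strand 35 bases after it. Cox6a2 and Cox8b held none of the NRF-1, GABPA, YY1 or ERR letters in these windows. This is not particular to the muscle isoforms, since other members such as Atp5b, Cox5a, Cox7b, Cox7c and Sdha held none of them either.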

How the data were processed

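RNA of 4 cultures was sequenced as 50-base single reads, with 1 library per mimic. As the methods and labels state, the authors used FASTQC to check reads and Cutadapt to remove adaptors, then used STAR 2.7 with Rnor 6.0 and turned rounded gene counts into the deposited RPKM values with edgeR. The counting program is not given in the sources used here. The values deposited per sample and for the whole series are identical, and no column was left unused (0).

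Ratios of RPKM were taken without a pseudocount for genes above 1.0 in both libraries and called past 1.3-fold. The methods give a cutoff of 2.0, which was tried as an alternative. Whole reads were recovered for all 15731 genes from the RPKM steps. For 654 genes a common factor was multiplied back. A factor that also leaves a whole gene length cannot be seen, so reads are lower limits and intervals at most too wide. The recovered lengths, which set the length classes and length centring, are lower limits too. Mt-cytb, for example, came out at 381 bases, which is likely too short. The deposited library sizes differed from TMM sizes of the recovered reads by at most 0.0033 (log2). The recovery and intervals were tested on simulated data.

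Named genes were all Mt- genes, the isoform lists, the Sdh genes, the complex I core, members called in 1 direction with all 3 mimics, and in each complex the nuclear member highest in the control and, among those above RPKM 10, the highest and lowest ratio per mimic; of the other lists, the highest and lowest ratio per mimic. Values of 2 genes on these lists are not reported here. Members, lists and rules were chosen with earlier results of these data known. The tools were matplotlib 3.10.9, pandas 2.3.3, scipy 1.17.1, numpy 2.4.6 and Python 3.11.15.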

Additional observations from a re-analysis of the deposited data

How the results depend on the processing

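No paired analysis was possible because each mimic has 1 library, and leaving out a library was not possible for the same reason. Of 302 summary values recomputed under alternatives, 240 stayed within their limits, 62 moved and 0 reversed a call. Of 2387 single-gene values 300 moved and 0 reversed.

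With a 1.5-fold cutoff, 2 members were lower and 0 higher under miR-106b, 5 and 1 under miR-93, and 0 higher under miR-25. With a 2-fold cutoff these were 0 and 0, 2 and 0, and 28 lower and 0 higher. The count lower with miR-25 was 66 at 1.5-fold and from 73 to 82 under the other alternatives. An RPKM cutoff of 10 left 0 members higher with miR-25 and a complex V median of -0.83, and with no filter and a pseudocount of 0.1 there were 3 higher.

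Library sizes were replaced by the summed reads of listed genes other than Mt- genes. This changes the total, its Mt- part and the TMM scaling that the deposited sizes matched. The median of all genes shifted by 0.06 (miR-106b), 0.13 (miR-93) and 0.11 (miR-25) on the log2 scale, and every value moved with it. Members called lower with all 3 mimics were then 3 (Cox6a2, Mt-nd5 and Mt-nd6) in place of 5, and 5 under each other scaling or filter run. The counts became 5 lower and 11 higher with miR-106b and 7 and 15 with miR-93. With miR-106b the medians were -0.04 for mitochondrial genes, -0.10 for complex II and 0.19 for complex IV. With miR-93 they were 0.04 for all members, 0.06 for nuclear and -0.11 for mitochondrial genes, and 0.06, 0.17, 0.02 and 0.18 for complexes I, II, III and V. With miR-25 they were -0.67, -0.70 and -0.65, and -0.59, -0.44, -0.86 and -0.62 for complexes I, II, IV and V.

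Without repeated symbols the complex IV median was -0.09 with miR-93 and -0.83 with miR-25, and that of complex V -0.83 with miR-25. Centred on the length class, which was chosen after seeing the data, 1 member was higher with miR-106b, and its medians were -0.06 for all, -0.03 for nuclear and -0.22 for mitochondrial genes and -0.08, -0.08, -0.05 and 0.04 for complexes I, III, IV and V. With miR-25 the mitochondrial median was then -0.64 and that of complex IV -0.78.

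As a share of reads, Cox6a2 made up 43.2% (miR-106b), 40.3% (miR-93), 30.0% (miR-25) and 60.6% (cel-miR-67) of its pair, and Cox8b 4.94%, 4.69%, 3.22% and 7.40%. The log2 change of mitochondrial over nuclear transcripts was -0.37, -0.37 and 0.18 by summed reads and -0.43, -0.61 and 0.12 by the median over genes. Where the alternative's construction does not show the cause, the cause was not tested. What depth cannot show is the spread between cultures, since intervals cover counting error only.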
